A study of Mus musculus with 6 samples.

Results

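The heat shock and endoplasmic reticulum (ER) stress genes described here are 40 genes that encode chaperones, folding enzymes, stress sensors and stress-regulated factors. They were chosen by gene symbol, each symbol was matched to a single Ensembl gene with counts, and all 40 of the 56941 genes listed had enough counts to be tested among 19354 genes. By role they comprise 15 ER chaperones and folding factors, 5 sensors and transcription factors of the unfolded protein response, 5 factors of ER-associated degradation, 4 genes of the integrated stress response, 9 cytosolic heat shock genes and the 2 mitochondrial chaperonin genes. They were measured by poly(A) RNA sequencing of mouse ventral hippocampus in 2 groups of 3 mice, labelled NEGR1_overexpression and NEGR1_control. NEGR1, an IgLON protein, is a lipid-anchored adhesion molecule of neurons, and the stated interest was its role in working memory and in behaviour that resembles anxiety or depression. The sources used here do not give the strain, sex or age of the mice, how overexpression was brought about, or what the controls received.

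Proteins that enter the ER are folded there by lumenal chaperones and disulphide isomerases. When unfolded proteins accumulate, the sensors IRE1 (the product of Ern1), PERK and ATF6 start the unfolded protein response, in which XBP1, ATF4 and cleaved ATF6 raise transcription of chaperone and degradation genes. The integrated stress response reaches ATF4 from other stresses as well, and the cytosol has its own programme under the heat shock factor HSF1. Neurons, which make large amounts of membrane and secreted protein, depend on both compartments.

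The 6 libraries held 30726110 to 38108394 counts. Negr1 (ENSMUSG00000040037) was at 185, 199 and 195 CPM (counts scaled to library size with TMM factors) in the overexpression libraries, against 181, 168 and 179.9 CPM in the control libraries, a fold of 1.09 with a 95% interval of 1.01 to 1.19. It did not pass edgeR's quasi-likelihood test (adjusted p = 0.488), although all overexpression libraries lay above all control libraries. The sources used here do not say whether RNA from an added copy would be counted in this gene. The 12 neuronal markers summed to 7064 to 7127 CPM in overexpression mice and 7259.7 to 7885 CPM in control mice. Overexpression replicate 1 stood apart by the summed level of its choroid plexus genes, at 1276 CPM over the 16 listed markers. The sums were 186 and 217 CPM in overexpression replicates 2 and 3 and 154 to 225 CPM in the control libraries. By mean log2 deviation from the mean of all 6 libraries, overexpression replicates 1 to 3 were at 2.36, -0.069 and 0.067 on these markers. Control replicates 1 to 3 were at -0.93, -0.47 and -0.96, so by this measure all overexpression libraries lay above all control libraries. In bulk tissue, fewer cells of a type and less RNA per cell cannot be told apart.

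Promoters of these genes carry short elements through which the stress programmes act, and the sites are shown to describe the members. The members were chosen as genes of these programmes, so the elements are not independent of the choice. A share above that of all genes is therefore no separate result. Of the 40 genes, 33 had a promoter window in RefSeq (build GRCm38.p6, from 250 bases before to 50 bases after an annotated start). No window was held for Manf, Hyou1, Atf6, Hsf1, Hspa8, Hsp90aa1 and Hsp90ab1. The ER stress response element, searched on both strands as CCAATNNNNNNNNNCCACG, was found in 9 members. It was found in 37 of all 27025 genes with a window, or 0.137%. The 9 members were Hspa5, Hsp90b1, Creld2, Dnajc3, Pdia6, Calr and Canx among the 13 ER chaperone genes with a window, and Syvn1 and Derl3 among the 5 degradation genes. Hsp90b1 held 2 sites. The sites are given below in the direction of the searched motif, with its fixed letters in capitals.
Hspa5: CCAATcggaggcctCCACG
Hsp90b1, site farther from the start: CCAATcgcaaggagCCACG
Hsp90b1, site nearer the start: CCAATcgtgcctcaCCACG
Dnajc3: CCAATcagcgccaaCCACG
Pdia6: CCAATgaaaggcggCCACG
Calr: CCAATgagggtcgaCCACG
Canx: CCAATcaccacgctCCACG
Creld2: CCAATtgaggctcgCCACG
Syvn1: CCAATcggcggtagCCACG
Derl3: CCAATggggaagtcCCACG

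The promoters of Hspa5, Hsp90b1 and Dnajc3 are shown whole because they belong to the ER chaperone genes on which the expression results turn. Capitals mark the element; in Hspa5 it begins 65 bases before the start (chr2:34771840-34772139, plus strand), in Hsp90b1 at 212 and 107 bases before it (chr10:86705395-86705694, minus strand) and in Dnajc3 at 105 bases before it (chr14:118937682-118937981, plus strand).
Hspa5: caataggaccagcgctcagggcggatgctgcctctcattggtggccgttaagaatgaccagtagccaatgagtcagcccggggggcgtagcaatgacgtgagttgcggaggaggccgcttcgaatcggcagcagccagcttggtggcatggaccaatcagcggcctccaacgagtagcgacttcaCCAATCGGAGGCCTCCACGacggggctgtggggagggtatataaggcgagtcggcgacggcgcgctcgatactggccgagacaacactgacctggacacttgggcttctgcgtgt
Hsp90b1: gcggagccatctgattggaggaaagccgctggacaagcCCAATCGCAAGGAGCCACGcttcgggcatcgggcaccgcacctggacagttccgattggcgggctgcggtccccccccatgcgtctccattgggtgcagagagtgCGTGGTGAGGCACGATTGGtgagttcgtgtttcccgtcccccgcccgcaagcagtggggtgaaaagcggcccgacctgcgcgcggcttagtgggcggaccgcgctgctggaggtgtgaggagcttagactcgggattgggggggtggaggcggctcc
Dnajc3: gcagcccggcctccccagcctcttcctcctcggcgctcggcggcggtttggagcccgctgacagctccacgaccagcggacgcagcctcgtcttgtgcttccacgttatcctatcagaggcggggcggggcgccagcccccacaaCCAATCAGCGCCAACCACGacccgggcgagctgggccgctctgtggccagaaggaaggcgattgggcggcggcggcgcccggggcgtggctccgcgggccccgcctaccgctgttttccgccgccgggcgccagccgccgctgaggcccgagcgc

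A second form of the element, ATTGGNCCACG, was found in Herpud1 and Dnajb11 and in 0.0444% of all genes with a window. The heat shock element was searched only as GAANNTTCNNGAA, so other arrangements in the windows were not looked for. The searched form was found in Hspd1, Hspe1 and Hsph1 and in 0.662% of all genes. Hspd1 and Hspe1 lie head to head on chromosome 1 and share 1 such site, made of 2 overlapping matches on opposite strands, which is shown in capitals in the Hspe1 window (chr1:55087898-55088197, plus strand).
Hspe1: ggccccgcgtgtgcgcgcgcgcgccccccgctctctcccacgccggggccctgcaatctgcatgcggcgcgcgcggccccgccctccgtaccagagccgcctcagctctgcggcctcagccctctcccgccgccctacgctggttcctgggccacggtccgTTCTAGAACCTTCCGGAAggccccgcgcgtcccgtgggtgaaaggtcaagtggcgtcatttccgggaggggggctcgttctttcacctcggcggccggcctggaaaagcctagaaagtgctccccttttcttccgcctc
The ATF6 and XBP1 element was searched only as TGACGTGG and the ATF4 element only as TGATGNAAT. These forms were found in 0 of the 33 members, against 0.714% and 1.08% of all genes. This says only that these exact letters are not in these windows, and other forms of the elements were not looked for.

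The ER chaperone genes had higher means in the overexpression libraries, by small amounts, and none passed the test over all genes. Of the 40 members, 0 passed an adjusted p of 0.05 in edgeR's quasi-likelihood test, where 0.0465% of all genes tested did. At an unadjusted p under 0.05, 13 of the 40 were higher and 0 lower in overexpression, beside 4.64% and 4.6% of all genes tested in these directions. Of these 13 genes 11 were ER chaperones, and the others were Derl3 and Hspe1. Of the 15 ER chaperones 14 had a fold above 1, and of all 40 members 32 did, where 50.4% of all genes tested did. The median log2 fold change was 0.24 over the 15 ER chaperone genes and 0.0015 over all genes tested. Among the other branches it was 0.017 for sensors and factors, 0.071 for ER-associated degradation, -0.043 for the integrated stress response, 0.076 for cytosolic heat shock and 0.17 for the chaperonin pair.

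**Figure D1:**
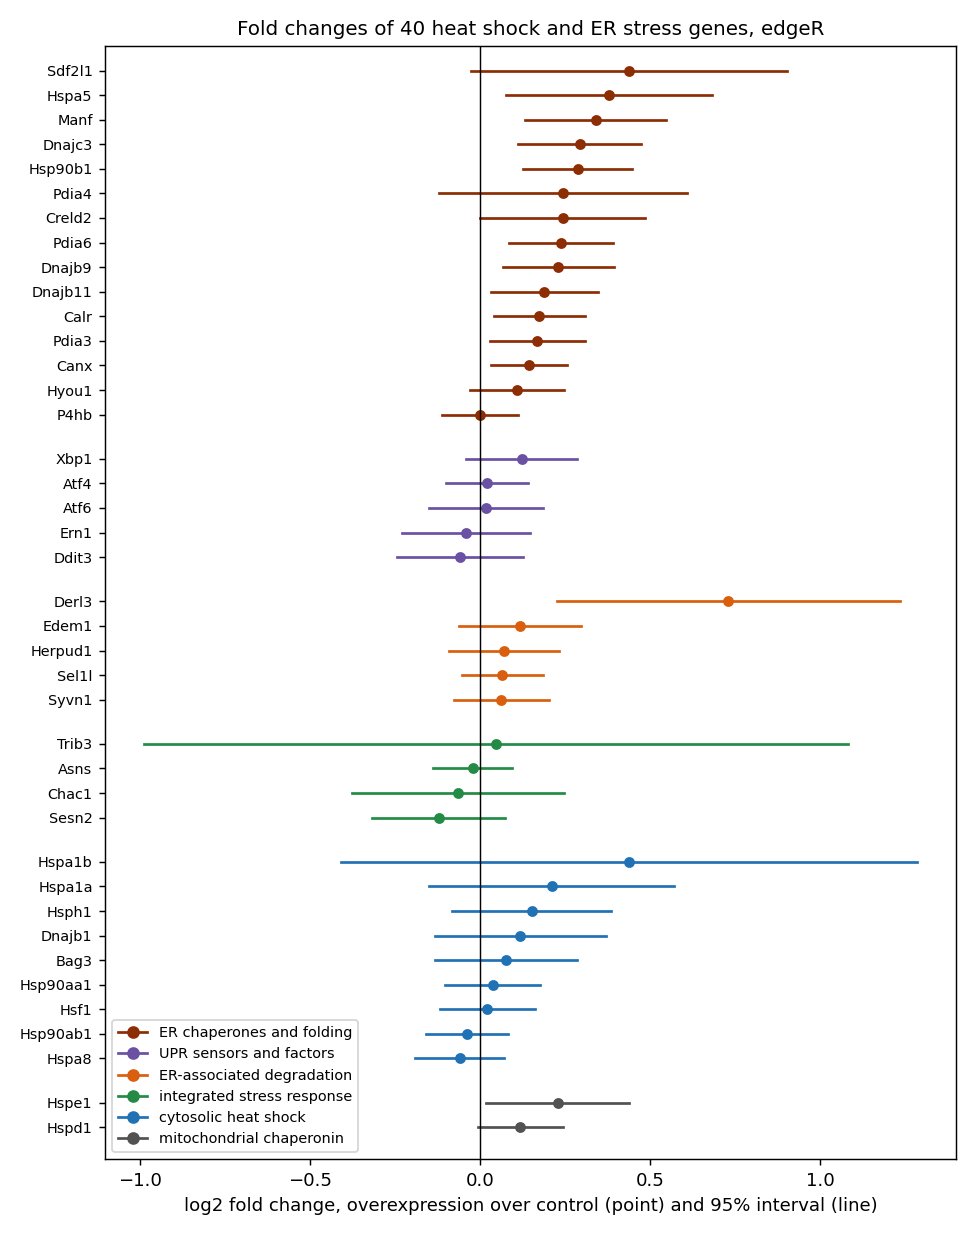
Log2 fold change of each of the 40 genes, overexpression over control, as a point with its 95% interval from edgeR (n = 3 libraries per group), grouped by branch. The ER chaperones lie to the right of 0 with the exception of P4hb, while the sensors and transcription factors lie between -0.058 and 0.12.

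Among the ER chaperones, Hsp90b1 (GRP94, the ER member of the HSP90 family) was at 326, 311 and 376 CPM in the overexpression libraries and at 298, 259 and 273 CPM in the control libraries. The groups did not overlap, and overexpression replicate 3 was the highest. Its fold was 1.22 (95% interval 1.09 to 1.36; log2 0.29 ± 0.073 SE), with an unadjusted p of 0.00199 and an adjusted p of 0.269 in edgeR's test. Dnajc3, a co-chaperone of BiP that also restrains the kinase PERK, was at 93.8, 81.1 and 107 CPM in overexpression mice and 76.3, 76.5 and 77.2 CPM in control mice. The control libraries lay close together and below each overexpression library (fold 1.22, 1.08 to 1.39; edgeR adjusted p = 0.34). Manf, a secreted ER protein that protects neurons, was at 47.1, 41.9 and 56.0 CPM in overexpression mice and 39.96, 36.0 and 38.8 CPM in control mice (fold 1.27, 1.10 to 1.46; edgeR adjusted p = 0.34), again without overlap.

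Hspa5 encodes BiP, the main HSP70 chaperone of the ER and the regulator of the 3 sensors, and is described in full because it changed sides between tests, a choice made after its values were seen. It was at 379.9, 317 and 429.8 CPM in overexpression mice and 324, 263 and 279.8 CPM in control mice. The groups overlapped, since control replicate 1 lay above overexpression replicate 2. Its fold was 1.30 (1.06 to 1.603; edgeR adjusted p = 0.459). DESeq2's Wald test called Hspa5 (adjusted p = 0.0195) and Hsp90b1 (adjusted p = 0.0395) and no other member, with 0.553% of all genes called. edgeR without a filter on low counts called 6 members, Hspa5, Hsp90b1, Manf, Sdf2l1, Dnajc3 and Pdia6, with 0.853% of all genes called.

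The rest of the branch had smaller or less even differences. Pdia6, a disulphide isomerase, averaged 128 ± 10.1 CPM in overexpression mice and 109 ± 8.63 CPM in control mice (SD, n = 3 each), and Canx (calnexin), a lectin chaperone of the ER membrane, 413 ± 21.4 and 374 ± 3.07 CPM; for both the groups did not overlap. With Hsp90b1, Dnajc3 and Manf this made 5 of 15 genes with all overexpression libraries above all control libraries and 0 with the reverse, where 7.07% of all genes tested had the first pattern and 8.07% the second. Calr (calreticulin), the soluble lectin chaperone, averaged 386 ± 21.5 CPM in overexpression mice and 342 ± 25.7 CPM in control mice, and Pdia3, the isomerase that works with both lectins, 202 ± 15.8 and 180.0 ± 11.1 CPM. Sdf2l1, a BiP-associated folding factor, had the largest log2 fold change of the branch, 0.44 ± 0.20 (SE), at 11.9 ± 2.65 against 8.82 ± 2.01 CPM, with groups that overlapped. The BiP co-chaperones Dnajb9 and Dnajb11 had folds of 1.17 (1.05 to 1.31) and 1.14 (1.02 to 1.27). Creld2, Pdia4 and Hyou1 had folds of 1.18, 1.19 and 1.08, and the lower limits for Pdia4 and Hyou1 were 0.921 and 0.979. P4hb, an abundant disulphide isomerase that is also a subunit of prolyl hydroxylase, stood at 97.0 ± 1.98 CPM in overexpression mice and 97.0 ± 1.51 CPM in control mice, with an interval of the fold from 0.926 to 1.08.

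The size of the difference rested in part on overexpression replicate 3. The median log2 fold change of the branch was 0.24 with all libraries, 0.15 without overexpression replicate 3, and 0.21 to 0.29 when any other library was left out. Without overexpression replicate 1, the library with the most choroid plexus transcripts, it was 0.24. The 7 ER chaperone genes with the first form of the ER stress response element all had a fold above 1 (median log2 fold change 0.24). So did 5 of the 6 with a window but without that form (median 0.21), among them Dnajb11, which carries the second form. All overexpression libraries lay above all control libraries in 4 of the 7 and 0 of the 6, beside 7.07% of all genes tested. At an unadjusted edgeR p under 0.05, 7 of the 7 and 3 of the 6 were higher, beside 4.64% of all genes tested. These genes were chosen with earlier results known and were measured in the same 6 libraries, so they are not independent cases. Manf and Hyou1 had no window and are in neither set. The part of the element in the differences was not tested. Of the 28 genes outside the 40 that carry the first form, 11 were matched by their RefSeq symbol to a tested gene. Synonyms were not used in this match. Ero1b, tested under its synonym Ero1lb among the other genes of ER folding, carries the first form but is not among the 11. Of these 11, 4 had a fold above 1, and the median was -0.0075.

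**Figure D2:**
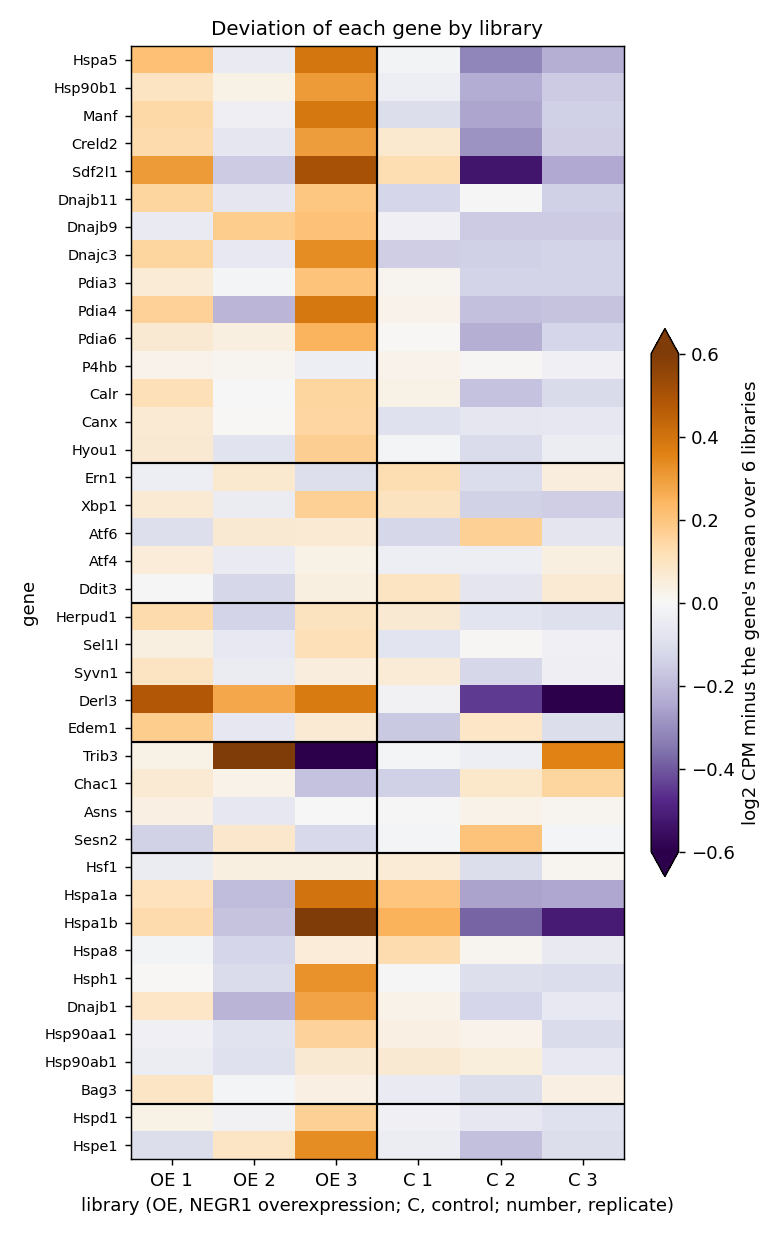
Log2 CPM of each gene minus its mean over the 6 libraries, by library (OE, overexpression; C, control), with lines between branches and colours capped at 0.6. Overexpression replicate 3 is the highest of the 6 libraries for 14 of the 15 ER chaperones in the top block and for 5 of the 9 cytosolic heat shock genes, and control replicate 1 is the highest control for 12 and 8 of them.

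The ER chaperones and the cytosolic heat shock genes varied together between mice of the same group. Overexpression replicate 3 was the highest of all 6 libraries for 14 of the 15 ER chaperones, where this held for 20.8% of all genes tested. The overexpression libraries ran in the order 3, 1, 2 from high to low for 13 of the 15 ER chaperones and 7 of the 9 cytosolic heat shock genes, where 16.9% of all genes tested had that order. Among the controls, replicate 1 was the highest for 12 of the 15 and 8 of the 9, beside 31.4% of all genes. The mean log2 deviation of the ER chaperones was 0.11, -0.032 and 0.26 in overexpression replicates 1 to 3 and -0.018, -0.19 and -0.13 in control replicates 1 to 3, so that the lowest overexpression library lay below the highest control. These orders were described after the values were seen.

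The sensors and transcription factors of the unfolded protein response had group means within 1.09-fold of each other. Xbp1, whose mRNA is spliced by IRE1 to give the active factor, was at 82.3, 76.6 and 88.7 CPM in overexpression mice and 84.5, 71.7 and 71.2 CPM in control mice (fold 1.09, 0.972 to 1.22; edgeR adjusted p = 0.657). Gene counts do not separate the spliced from the unspliced form. Ern1, which encodes IRE1 itself, was at 17.2, 18.5 and 16.5 against 19.2, 16.4 and 18.1 CPM (fold 0.972, 0.854 to 1.11). Atf6, the membrane-bound factor that is cleaved on stress, was at 80.9, 90.6 and 90.3 CPM in overexpression mice and 79.3, 97.1 and 82.2 CPM in control mice (fold 1.01, 0.901 to 1.14). For these 3 genes the groups overlapped and the intervals span 1.

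Atf4, the factor that the integrated stress response raises mainly through translation, was at 81.0, 75.4 and 79.7 CPM in overexpression mice and 76.3, 76.2 and 80.3 CPM in control mice, a fold of 1.01 with an interval of 0.933 to 1.10. Ddit3, which encodes the pro-apoptotic factor CHOP downstream of ATF4, was at 16.1, 14.9 and 16.6 CPM in overexpression mice and 17.3, 15.4 and 16.9 CPM in control mice (fold 0.961, 0.845 to 1.09). The groups overlapped for both genes. A second Ensembl entry for Ddit3 that overlaps the first had 0 counts in every library.

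Targets of ATF4 in the integrated stress response likewise gave intervals around 1. Sesn2 (sestrin 2), a sensor that restrains mTORC1, was at 16.7, 19.5 and 16.9 CPM in overexpression mice and 18.3, 21.2 and 18.3 CPM in control mice (fold 0.919, 0.802 to 1.05; edgeR adjusted p = 0.72). Asns, asparagine synthetase, was at 83.5, 77.8 and 81.2 CPM in overexpression mice and 81.1, 82.9 and 82.2 CPM in control mice (fold 0.985, 0.909 to 1.07). Chac1, which degrades glutathione, was at 4.98, 4.85 and 4.22 against 4.33, 5.05 and 5.31 CPM (fold 0.956, 0.770 to 1.19). In each of these genes the groups overlapped. Trib3, a pseudokinase induced by CHOP, had 14, 27 and 6 counts in overexpression and 13, 15 and 16 counts in control libraries, too few for a narrow interval (fold 1.03, 0.504 to 2.11). Changes of Trib3 within that interval are not excluded, and the spread between overexpression mice widens it along with the low counts.

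In ER-associated degradation, which returns misfolded proteins to the cytosol, Derl3 differed from its partners in size. Derl3, a derlin of the dislocation machinery, was at 2.03, 1.75 and 1.89 CPM in overexpression mice and 1.43, 1.06 and 0.918 CPM in control mice, from 68, 60 and 68 and from 46, 40 and 28 counts. The groups did not overlap, and the fold was 1.66 (1.17 to 2.35; unadjusted p = 0.0078, adjusted p = 0.401 in edgeR's test). Edem1, a lectin that delivers glycoproteins for degradation, was at 31.3, 26.6 and 29.0 CPM in overexpression mice and 24.8, 29.4 and 25.8 CPM in control mice (fold 1.08, 0.957 to 1.23). Sel1l, the adaptor of the ubiquitin ligase that Syvn1 encodes, was at 271, 254 and 286 against 250.1, 265 and 259 CPM (fold 1.05, 0.963 to 1.14), and the groups of both genes overlapped. Syvn1 and Herpud1, a membrane protein of the same complex, had folds of 1.04 and 1.05 with intervals that span 1. The median of the 5 genes was 0.071, and 0.15 without overexpression replicate 2 and 0.11 without control replicate 1.

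**Figure D3:**
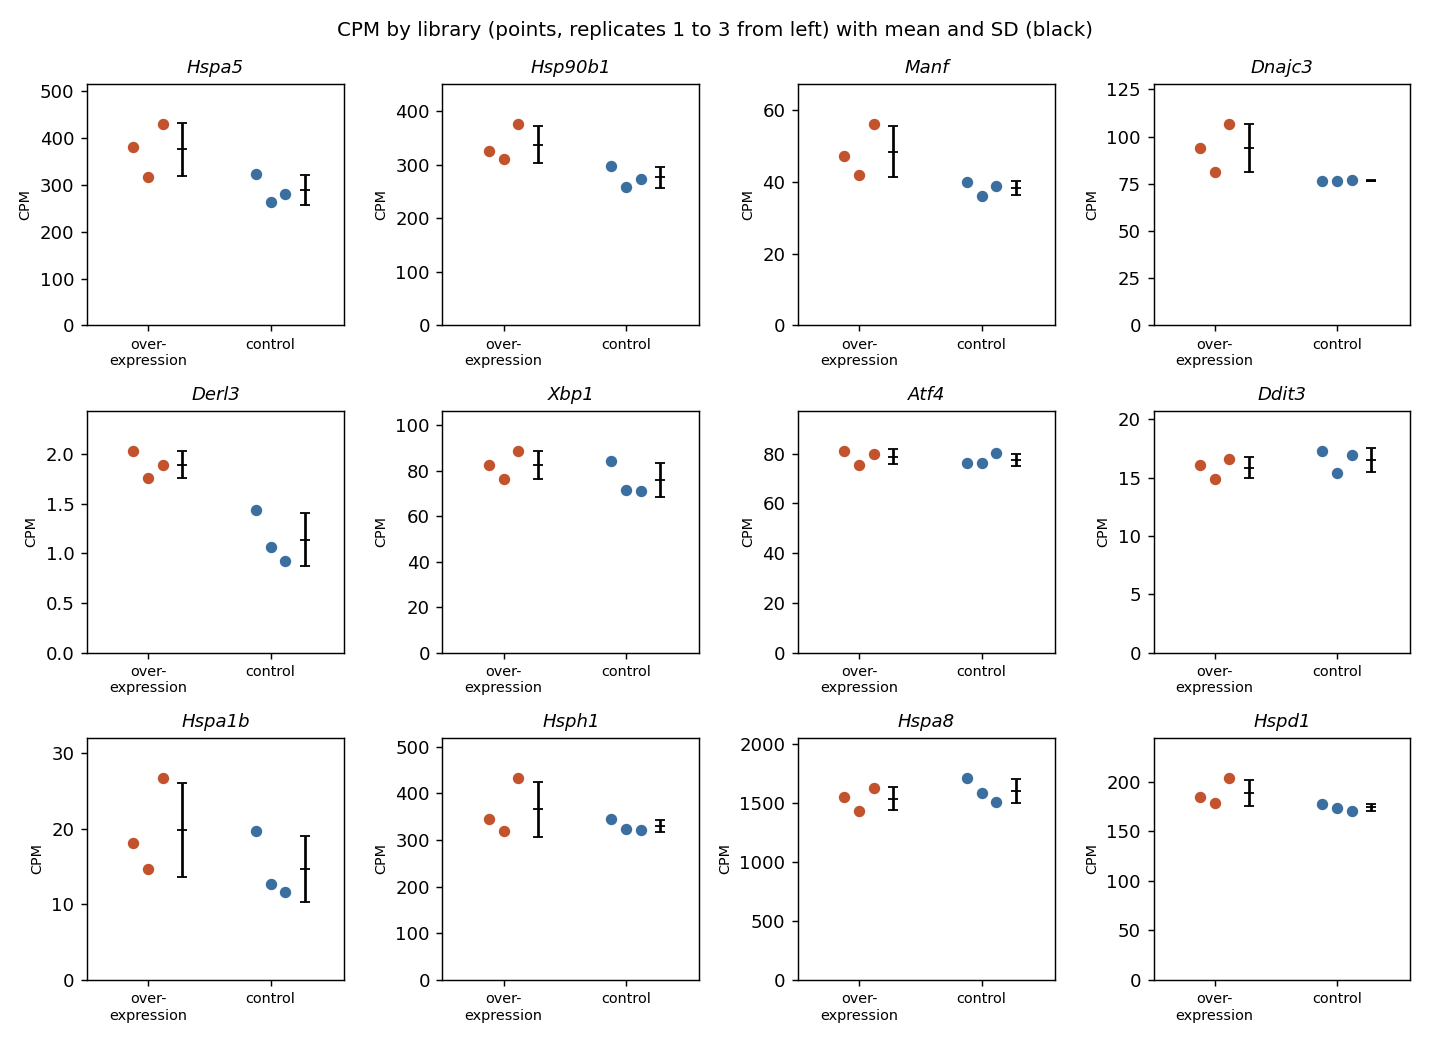
CPM of 12 of the genes in each library (points, replicates 1 to 3 from left) with group mean and SD (black, n = 3), on axes that start at 0. The overexpression points of Hsp90b1, Manf, Dnajc3, Derl3 and Hspd1 lie above all control points, and those of the other 7 genes overlap with the controls.

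The cytosolic heat shock genes had wide or near-zero differences. Hsf1, the master factor, was at 35.3, 37.5 and 37.5 CPM in overexpression mice and 37.97, 34.0 and 36.8 CPM in control mice (fold 1.02, 0.922 to 1.12; edgeR adjusted p = 0.95). Hsph1 (HSP110), a nucleotide exchange factor for HSP70, was at 346, 319.7 and 432 CPM in overexpression mice and 344, 323 and 321 CPM in control mice (fold 1.11, 0.944 to 1.31). Overexpression replicate 3 alone stood above the range of the other 5 libraries, and without it the log2 fold change was 0.017. The inducible HSP70 genes Hspa1a and Hspa1b are near-identical copies, so reads may have been split between them. Hspa1b was at 18.2, 14.6 and 26.7 CPM in overexpression mice and 19.7, 12.7 and 11.6 CPM in control mice, and Hspa1a at 8.50, 6.90 and 10.4 against 9.06, 6.62 and 6.66 CPM. Summed before the fit, the pair was at 26.7, 21.5 and 37.1 CPM in overexpression mice and 28.8, 19.3 and 18.2 CPM in control mice, a fold of 1.29 (0.833 to 1.99; edgeR adjusted p = 0.759). Within each group the pair varied by over 1.5 times between mice, with control replicate 1 above overexpression replicates 1 and 2.

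Dnajb1, an HSP40 co-chaperone, averaged 55.0 ± 9.30 CPM in overexpression mice and 50.7 ± 2.69 CPM in control mice (SD, n = 3 each), and Bag3, a co-chaperone of selective autophagy, 10.6 ± 0.388 and 10.1 ± 0.491 CPM. Hsp90ab1 and Hspa8, the constitutive cytosolic HSP90 and HSP70, and Hsp90aa1, the stress-inducible HSP90, were the most abundant members per length of longest annotated transcript, with means over 6 libraries of 645 CPM per kb for Hsp90ab1, 497 for Hspa8 and 337 for Hsp90aa1, against 167 CPM per kb for Calr, the highest ER chaperone. Hsp90ab1 averaged 1603 ± 90.1 CPM in overexpression mice and 1647 ± 77.5 CPM in control mice, Hspa8 1537 ± 97.1 and 1602 ± 102 CPM, and Hsp90aa1 1120.4 ± 99.1 and 1092 ± 58.9 CPM. None of these 3 differed beyond the spread between mice, and all have processed pseudogenes whose reads could have been shared with them. The median log2 fold change of the 9 cytosolic genes was 0.076, 0.010 without overexpression replicate 3 and 0.12 after a correction for GC content.

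Hspd1 (HSP60) and Hspe1 (HSP10), which form the folding chamber of the mitochondrial matrix and share the promoter shown above, were both higher on average in overexpression. Hspd1 was at 185, 178 and 204 CPM in overexpression mice and 178, 174 and 171 CPM in control mice, with no overlap by a margin of less than 1 CPM (fold 1.09, 0.996 to 1.18; edgeR adjusted p = 0.564). Hspe1 was at 26.3, 29.97 and 35.5 CPM in overexpression mice and 27.4, 24.8 and 26.2 CPM in control mice, with overlap (fold 1.17, 1.01 to 1.35; edgeR adjusted p = 0.50). Their median log2 fold change of 0.17 was 0.087 without overexpression replicate 3. Of 14 other genes of mitochondrial folding and proteolysis, 0 passed, 5 had a fold above 1, and the median was -0.030. Those with the smallest p were Trap1, the mitochondrial HSP90, at 55.0 ± 2.77 against 60.8 ± 1.13 CPM, and Htra2, a protease, at 15.2 ± 1.48 against 17.2 ± 0.932 CPM.

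Among further genes of the same pathways, 0 passed in edgeR's test at an adjusted p of 0.05. Of 34 other genes of ER folding and translocation, 26 had a fold above 1, beside 50.4% of all genes tested, and the median log2 fold change was 0.053, beside 0.0015. In 11 of the 34 all overexpression libraries lay above all control libraries, and in 1 all lay below, beside 7.07% and 8.07% of all genes tested. Hspa13, an ER-associated HSP70, was at 62.7 ± 4.42 CPM in overexpression mice and 54.3 ± 2.08 CPM in control mice (fold 1.16, 1.05 to 1.27), and Ssr3, a subunit of the translocon-associated complex, at 152 ± 10.4 and 138 ± 2.81 CPM. Of 13 other sensors and transducers 8 were above 1, with a median of 0.0074. Ppp1r15b, which directs dephosphorylation of eIF2alpha, was at 76.2 ± 3.15 against 69.4 ± 2.89 CPM and Creb3l2, an ER-bound transcription factor, at 28.5 ± 2.53 against 25.5 ± 1.62 CPM.

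Of 21 other genes of ER-associated degradation 11 were above 1 and 10 below, with a median of 0.0054. Vcp, the ATPase that extracts proteins from the ER membrane, was at 219, 214 and 213 CPM in overexpression mice and 243, 260.2 and 244 CPM in control mice, without overlap. Its fold was 0.863 (0.801 to 0.931), with an edgeR adjusted p of 0.216. Os9, a lectin of the same pathway, was at 119.9 ± 5.32 against 134 ± 3.10 CPM (fold 0.898, 0.828 to 0.973). Among 27 other ATF4 target genes 13 were above 1, with a median of -0.017; Phgdh, of serine synthesis, was at 55.5 ± 4.58 against 63.7 ± 2.04 CPM and Aars, the alanyl-tRNA synthetase, at 153 ± 2.99 against 167 ± 3.64 CPM. Of 39 other cytosolic heat shock and chaperone genes 23 were above 1 (median 0.042). Ppid and Dnajb4, both co-chaperones, had folds of 1.13 (1.03 to 1.24) and 1.16 (1.03 to 1.30).

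**Figure D4:**
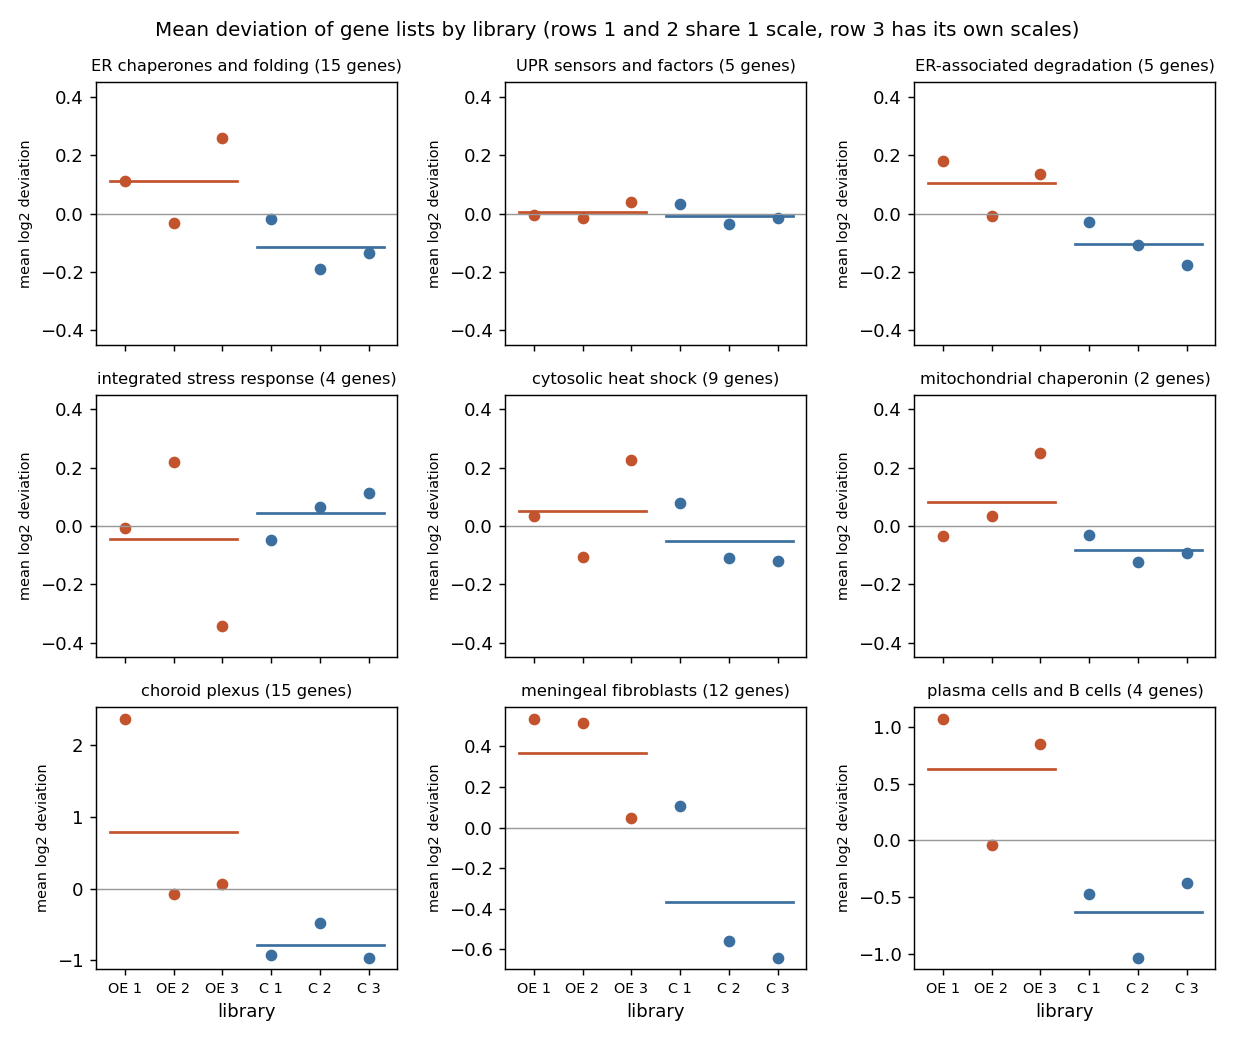
Mean log2 deviation from the mean of all 6 libraries for each branch (upper rows) and for 3 lists of markers of other cells (lower row, each on its own scale), with 1 point per library and a line at each group mean. Overexpression replicate 3 is highest for the ER chaperones at 0.26 and the cytosolic heat shock genes at 0.23, while overexpression replicate 1 is highest for the choroid plexus markers at 2.36.

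Markers of other cells differed between the libraries, with 0 genes of these lists past an adjusted p of 0.05 in edgeR's test. All 12 meningeal fibroblast markers had a fold above 1, with summed levels of 176 to 245 CPM in overexpression mice and 122 to 192 CPM in control mice. Of the 12, 8 had an unadjusted edgeR p under 0.05, beside 4.64% of all genes tested in this direction. In 6 all overexpression libraries lay above all control libraries, beside 7.07%. The smallest edgeR adjusted p of this list was 0.189, and that of the 40 members was 0.269. The 16 choroid plexus markers summed to 186 to 1276 CPM in overexpression mice and 154 to 225 CPM in control mice. Of these 15 were tested and all 15 were above 1. In 6 of the 15 all overexpression libraries lay above all control libraries, beside 7.07% of all genes tested. The plasma and B cell list, whose secreting cells are rich in ER, summed to 21.6, 8.57 and 12.9 CPM in overexpression mice and 7.85, 6.89 and 7.31 CPM in control mice. Of its 8 genes 4 had enough counts to be tested, all 4 were above 1 and 0 of the 8 were at 0 in every library. Overexpression replicates 1 and 3 were the highest on this list and replicate 2 the lowest of its group.

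In the other direction, all 10 oligodendrocyte markers had a fold below 1, with sums of 3077 to 3631 CPM in overexpression mice and 3853 to 4856 CPM in control mice. Of the 10, 8 had an unadjusted edgeR p under 0.05, beside 4.6% of all genes tested in this direction. Of the 12 neuronal markers 10 were below 1 (median log2 fold change -0.074). In this direction 4 had an unadjusted edgeR p under 0.05, beside 4.6% of all genes tested. In 3 all overexpression libraries lay below all control libraries, beside 8.07% of all genes tested. Of 9 ependymal markers tested 8 were below 1. The astrocyte and endothelial lists had 5 of 10 genes above 1 each, with medians of -0.0043 and -0.0035, and the microglial list 3 of 10, with a median of -0.029. Within the astrocyte list Gfap, an intermediate filament gene singled out after its values were seen, was at 338, 328 and 401 CPM in overexpression mice and 465, 525 and 533 CPM in control mice. Its fold was 0.700 (0.620 to 0.790) and its edgeR adjusted p of 0.0862 was smaller than that of any of the 40 members. Apart from overexpression replicate 1, the difference in choroid plexus markers depended on the measure. By mean log2 deviation, overexpression replicates 2 and 3 also lay above the control libraries on that list. By summed level, at 186 and 217 CPM, they lay within the range of the control libraries, 154 to 225 CPM. The part of these cells in the chaperone result was not tested.

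Immediate early genes, which follow neuronal activity, had lower means in overexpression mice for 11 of 17 genes, with a median log2 fold change of -0.073, the opposite sign to the chaperones. Egr1 was at 79.4, 67.0 and 96.7 CPM in overexpression mice and 101, 121 and 105 CPM in control mice (fold 0.743, 0.589 to 0.938; edgeR adjusted p = 0.456), and Egr4 had a fold of 0.804 (0.672 to 0.963), also without overlap. Across libraries their mean log2 deviations were -0.30, -0.19 and 0.36 in overexpression replicates 1 to 3 and 0.032 to 0.054 in the control libraries, so overexpression replicate 3 was the highest of the 6. The cold-inducible RNA-binding genes Cirbp and Rbm3 lay close in both groups: Cirbp averaged 43.6 ± 5.61 CPM in overexpression mice and 44.3 ± 4.50 CPM in control mice, and Rbm3 averaged 78.9 ± 8.41 and 77.3 ± 3.61 CPM. Of 15 clock genes 0 passed and 9 were above 1, with Nr1d1, a clock repressor, at 87.5 ± 2.41 against 103 ± 4.80 CPM and Hlf, a clock output factor, at 208 ± 10.9 against 182 ± 4.61 CPM. Of 12 glucocorticoid-induced genes 10 were above 1 (median log2 fold change 0.10); Sult1a1, a sulphotransferase, had a fold of 1.26 (1.04 to 1.53) and Mt1, a metallothionein, was at 91.8 ± 10.5 CPM in overexpression mice and 104 ± 8.34 CPM in control mice. The part of neuronal activity, body temperature, time of day or stress hormone in the chaperone levels was not tested.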

How the data were processed

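The authors deposited 1 table of raw counts, in whole numbers and by Ensembl gene, whose 6 columns were assigned to libraries by the names in the labels, with 0 columns of samples unused. Per the labels' protocols, Trizol RNA was purified on poly(T), and dUTP in the second strand made the libraries strand-specific. Per the submitters' processing notes, Trimmomatic 0.36, STAR 2.7.10 and featureCounts 2.0.3 were used; mm10 and GRCm39 both appear there, with no role given. The sources used here do not give the strand setting, annotation release or treatment of shared reads, which decide counts of near-identical genes.

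Symbols came from a GENCODE M21 list (51948 of 56941 identifiers matched) and, for 6 genes of the lists, from RefSeq synonyms. The 40 members and all lists were chosen with earlier results of these data known. The robust quasi-likelihood test of edgeR 4.0.16 (R 4.3.3) was fitted to the counts with group as the only term, after filterByExpr and TMM scaling; Benjamini-Hochberg adjustment ran over 19354 genes, with a threshold of 0.05. Standard errors came from the F statistic. The series' design text gives separate mice; each pair of libraries differed by more than sampling noise. Per-library values are given for regulators, the 3 members with the smallest p in each branch and the Hspa1 pair; pathway and activity, clock and hormone lists are represented by their 2 genes of smallest p, and cell markers by sums and counts. The fit was tested on simulated counts. Alternatives were other scaling, filters, DESeq2 1.42.0, limma 3.58.1 voom with sample weights, the replicate number as a block, a GC correction (GENCODE M21 transcripts, covering 97.7% of genes), and leaving out each library.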

Additional observations from a re-analysis of the deposited data

How the results depend on the processing

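With edgeR's quasi-likelihood test, 9 genes of the whole table passed an adjusted p of 0.05. The count was 304 with no filter on low counts, 5 with a minimum of 1 CPM in 3 libraries, 107 with DESeq2, and 2 to 63 when each library was left out in turn (63 without overexpression replicate 1, 5 without overexpression replicate 2, 39, 2 and 3 without control replicates 1 to 3). Members called were 6 with no filter on low counts, 2 with DESeq2 and 0 in every other setting run. The median log2 fold change kept its direction in every setting run for the ER chaperones (0.15 to 0.29 over the libraries left out), ER-associated degradation (0.055 to 0.15), cytosolic heat shock (0.010 to 0.11), the chaperonin pair (0.087 to 0.23), and the integrated stress response (-0.14 to -0.0068). For the sensors and factors it ran from -0.017 to 0.012 over the libraries left out, with -0.017 without control replicate 3; the cause was not tested.

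Of the alternative log2 fold changes of single members, 639 kept direction and side of the threshold, 8 kept direction and passed it, and 31 changed sign. P4hb, at -0.00012, was 0.0011 with RLE factors, 0.0098 with upper quartile factors, 0.014 with library totals, 0.0052 with no filter, 0.0044 with the 1 CPM minimum, 0.0010 with DESeq2, 0.0020 with limma-voom, 0.0015 with scaling that left out mitochondrial and choroid plexus genes, and 0.034 with the GC correction. With the GC correction Atf6 was -0.0072 and Hsp90aa1 -0.0059, and Trib3 was -0.21 with limma-voom. Over the libraries left out, the ranges that crossed 0 were -0.0013 to 0.050 for Atf4, -0.037 to 0.11 for Atf6, -0.10 to 0.015 for Ern1, -0.60 to 0.46 for Trib3, -0.046 to 0.0049 for Asns, -0.14 to 0.0082 for Chac1, -0.0018 to 0.24 for Dnajb1, -0.035 to 0.085 for Hsp90aa1, -0.024 to 0.060 for Hsf1 and -0.013 to 0.019 for P4hb. The causes were not tested.

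Replicate numbers are shared by the groups, but the deviations of same-numbered libraries correlated at 0.017, 0.017 and 0.023 across genes, so the numbers were not taken to pair mice. Each library did correlate best with its own number, a hint from the data and not from the design. With the replicate number as a block, 26 genes of the whole table and 0 members were called, and Trib3 was at -0.039. With 3 mice a group, folds of the size seen here lie near the spread between mice, and the low counts of Trib3 and Derl3 limit both.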
